A study of Homo sapiens with 6 samples.

Results

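The 10 genes described here take up, store, release or sense iron: TFRC, SLC11A2, STEAP3, FTH1, FTL, NCOA4, SLC40A1, HMOX1, IREB2 and ACO1. They were chosen by symbol from the 36459 gene symbols of the count table, and each of the 10 had enough counts to be tested. RNA was sequenced from the human line PC9, which derives from a non-small cell lung cancer, as 3 libraries of untreated parental cells from 3 independent cultures. The other 3 libraries were of persister (PS) cells, the PC9 cells that remained when erlotinib, which blocks the EGFR kinase, had been present at 15 µM for 6 days, and were pooled from 9 independent cultures. Pooling averages over cultures, so the spread between PS libraries is not that between single cultures, and the presence of the drug cannot be told apart from the persister state. The study followed these cells for ferroptosis, a cell death driven by iron-dependent lipid peroxidation, and the comparison asks how the messages for iron handling differed between PS and parental cells.

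The libraries held between 29476725 and 34893782 gene counts, and mitochondrially encoded genes took 1.90% to 3.37% of them in PC9 and 3.39% to 3.96% in PS cells, without overlap. The 6 epithelial markers of the line were all detected. Their summed level was 7519 to 8051 CPM (counts-per-million units, normalised between libraries) in PC9 and 5936 to 6298 CPM in PS cells. They did not move together: CDH1 and KRT7 were higher in PS cells and the other 4 lower, beside 28.7% and 28.1% of all genes tested. Of 5 leukocyte markers 2 had enough counts to be tested, and their summed level of 74.7 to 76.5 CPM in PC9 and 19.6 to 22.6 CPM in PS cells was nearly all CD68, with CD3E at 0. Fibroblast markers summed to 10.2 to 10.7 CPM in PC9 and 26.5 to 30.1 CPM in PS cells, with COL1A1 the 1 of 6 tested and COL3A1 at 0. The summed endothelial level was 8.05 to 8.82 CPM against 3.254 to 3.804 CPM. Of 5 markers of red cell precursors, which handle much iron, HBA2, HBB and ALAS2 were at 0 in every library. The 6 transcripts read as output of ERK signalling, which EGFR drives, were all lower in PS cells, as were 28.1% of all genes tested. Their sums were 392 to 415 CPM in PC9 and 127 to 135 CPM in PS cells. Of 4 proliferation markers 3 were higher in PS cells, beside 28.7% of all genes tested, and CDK1 did not pass. The paper describes PS cells as slowly cycling, which was not examined here. The paper also found PS cells positive for the surface markers CD24 and CD133. CD24 rose from 212 to 439 CPM, and PROM1, which encodes CD133, had too few counts to be tested. The part of these differences in the iron genes was not tested.

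Cells take up iron mainly as transferrin, which binds the transferrin receptor (TFRC) and is carried into endosomes. There the ferrireductase STEAP3 reduces the iron and the divalent metal transporter SLC11A2 (DMT1) moves it into the cytosol. Surplus iron is stored in shells of ferritin heavy (FTH1) and light (FTL) chains, is set free again when NCOA4 carries ferritin to the lysosome, and leaves the cell through ferroportin (SLC40A1). Heme oxygenase HMOX1 releases iron from heme. The iron regulatory proteins IRP1 (ACO1, which is the cytosolic aconitase when it holds an iron-sulfur cluster) and IRP2 (IREB2) bind hairpins called iron-responsive elements when iron is scarce. A bound element in the 5′ UTR blocks translation, and bound elements in the 3′ UTR protect the message from decay, so message levels of FTH1, FTL and SLC40A1 need not follow their proteins.

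The elements are shown because they mark which members carry a sequence pattern of this kind. Binding by these proteins was not measured. Transcripts of the members, of every class in GENCODE 44, were searched on their own strand. The pattern was a C, 5 bases, the loop CAGTGN and 5 bases that pair with the first 5. G-U pairs and 1 unpaired base on the 3′ side were allowed. Of 19565 protein-coding genes, searched in protein-coding transcripts alone, 4.30% held a match in at least 1 transcript. That share counts matches anywhere in the transcript, coding region included, with or without an unpaired base. It is thus a looser measure than a match in a UTR. A match is given here as a description, and whether it acts as a site was not tested. Each sequence is 30 bases of GRCh38, 5′ to 3′ on the transcript strand, with the loop in capitals. FTH1 (chr11:61967573-61967602, minus strand), FTL (chr19:48965335-48965364, plus strand) and SLC40A1 (chr2:189580660-189580689, minus strand) had 1 match each in the 5′ UTR.
FTH1: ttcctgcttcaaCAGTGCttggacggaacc
FTL: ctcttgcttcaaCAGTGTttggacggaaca
SLC40A1: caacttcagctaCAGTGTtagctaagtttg
SLC11A2 had 1 match with an unpaired base in the 3′ UTR of some of its transcripts (chr12:50988268-50988297, minus strand), and TFRC had 4 in its 3′ UTR, which are given in their order along the message (chr3:196050978-196051007, chr3:196050574-196050603, chr3:196050509-196050538 and chr3:196050462-196050491, minus strand).
SLC11A2: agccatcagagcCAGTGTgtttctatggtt
TFRC element 4: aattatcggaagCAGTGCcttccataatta
TFRC element 3: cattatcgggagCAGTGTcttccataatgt
TFRC element 2: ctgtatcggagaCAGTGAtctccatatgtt
TFRC element 1: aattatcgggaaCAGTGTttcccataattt
IREB2 held 1 match, also with an unpaired base, in its 3′ UTR, and no match was found in transcripts of HMOX1, NCOA4, ACO1 and STEAP3.

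In PS cells the messages for the transferrin receptor, both ferritin chains and heme oxygenase were higher, and those for SLC11A2, NCOA4, ferroportin and IRP1 were lower. SLC11A2 had the largest change among the 10 genes and fell to 0.533 of its parental level, and HMOX1 had the largest rise, to 1.49 times. Thus 4 members rose, 4 fell and 2, STEAP3 and IREB2, did not pass the test (edgeR quasi-likelihood test, adjusted p under 0.01 over 14626 genes). Of all genes tested 56.8% passed it, 28.7% higher and 28.1% lower, so 8 of 10 is not a count to read as particular to iron genes. The 3 libraries of one condition did not overlap the 3 of the other for the same 8 members, against 71.3% of all genes. The median log2 fold change of the members was 0.06, beside -0.01 over all genes. Against a fold change of 1.5, which 13.5% of all genes passed, SLC11A2 was the member that passed. In bulk RNA such as this, fewer cells carrying a message and less of it per cell cannot be told apart.

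**Figure D1:**
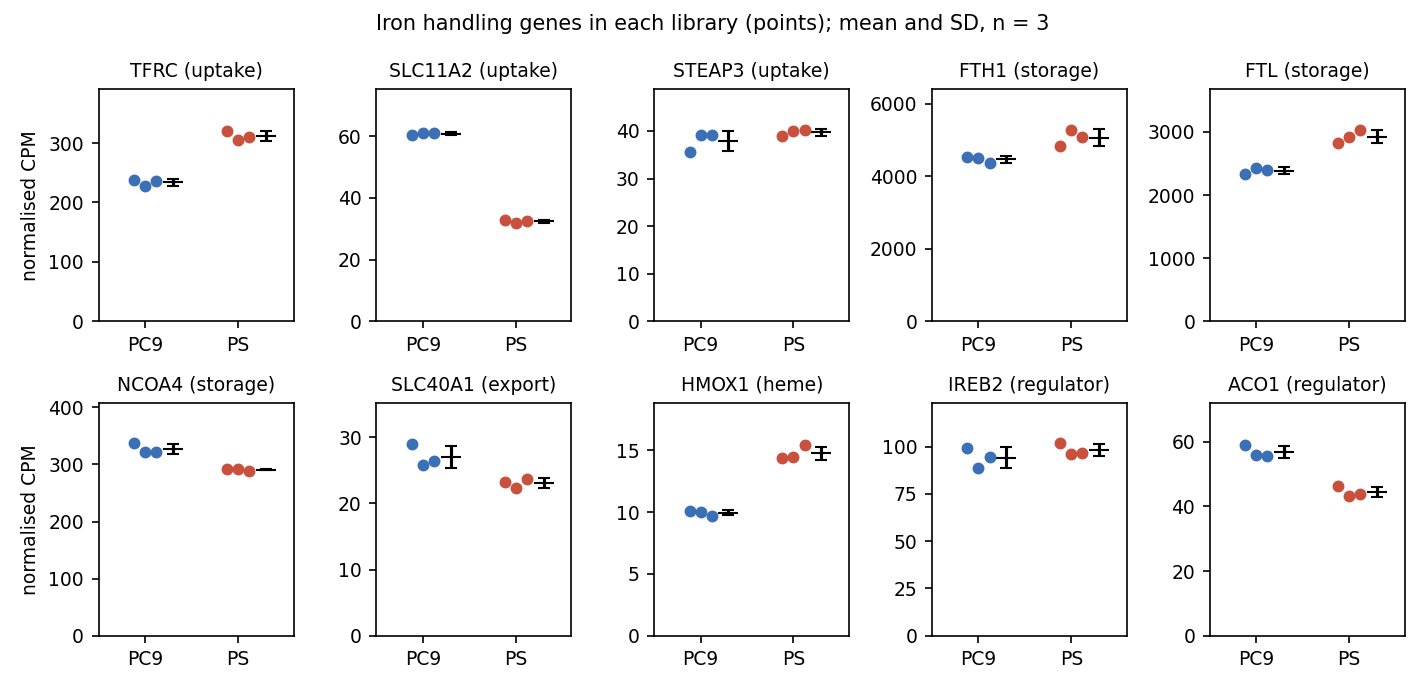
Normalised CPM (vertical axes, from 0) of the 10 genes in PC9 (blue) and PS (red) libraries, 1 point per library, with the mean and SD of 3 libraries beside them. The PS points lie apart from the PC9 points for 8 genes and overlap them for STEAP3 and IREB2.

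TFRC (ENSG00000072274, chr3:196012511-196082153, minus strand), the receptor for transferrin, stood at 238, 228 and 236 CPM in PC9 replicates 1, 2 and 3. It stood at 321, 305 and 311 CPM in PS replicates 1, 2 and 3. Every PS library was above every PC9 library, and the means were 234 ± 5.28 and 312 ± 8.26 CPM (SD, n = 3). The rise was 33.6%, a log2 fold change of 0.42 with a standard error of 0.0362 (edgeR adjusted p = 1.91e-06), and 40.2% of all genes tested changed by more.

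SLC11A2 (ENSG00000110911, chr12:50979401-51028566, minus strand), the transporter that moves iron out of the endosome, stood at 60.2, 61.0 and 61.1 CPM in PC9. In PS cells it stood at 32.7, 32.0 and 32.5 CPM. The groups were far apart, with a spread within each below 1 CPM, and the means were 60.8 ± 0.477 and 32.4 ± 0.390 CPM (SD, n = 3). The log2 fold change was -0.91 with a standard error of 0.0409 (edgeR adjusted p = 1.14e-08), and 14.5% of all genes changed by more. Receptor and transporter therefore moved in opposite directions: there were 3.95, 3.73 and 3.86 TFRC counts for each SLC11A2 count in PC9 and 9.81, 9.53 and 9.56 in PS cells. TFRC was higher and SLC11A2 lower in every PS library, so this ratio had to separate the conditions. Its lack of overlap (exact two-sided permutation test, p = 0.1, the smallest that 3 against 3 libraries can give) therefore adds no support. It was not among the ratios planned beforehand.

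STEAP3 (ENSG00000115107, chr2:119223831-119265652, plus strand), the endosomal ferrireductase, stood at 35.6, 39.2 and 39.1 CPM in PC9 and 38.8, 40.0 and 40.2 CPM in PS cells. The groups overlapped, PC9 replicate 1 being the lowest of the 6 libraries. The log2 difference of 0.06 had a 95% interval from -0.05 to 0.18 (edgeR adjusted p = 0.283), so a change within these bounds was not excluded.

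**Figure D2:**
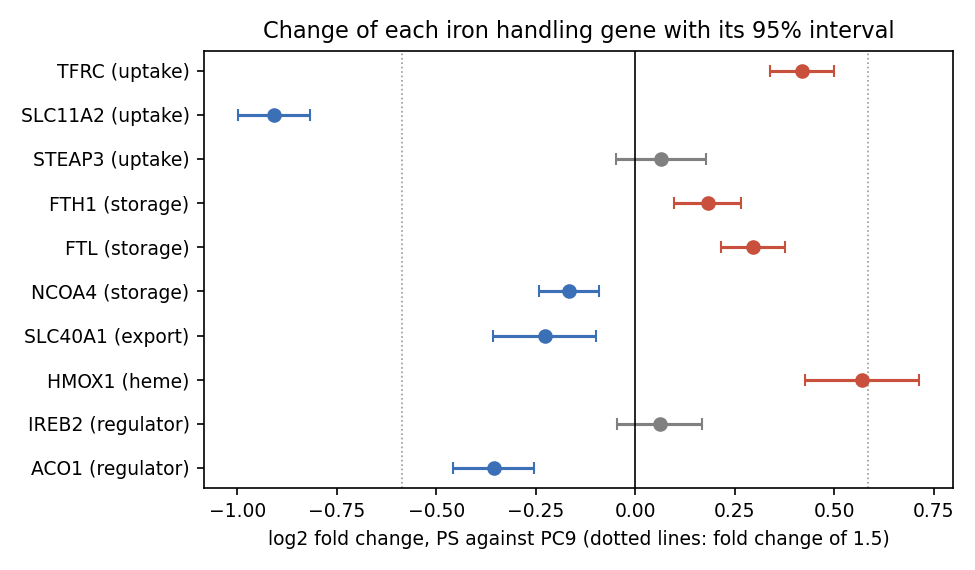
Log2 fold change of PS against PC9 (horizontal axis) for the 10 genes, with 95% intervals, red for higher, blue for lower and grey for genes that did not pass. SLC11A2 at -0.91 lies wholly outside the dotted lines of a 1.5-fold change, and the interval of HMOX1, 0.43 to 0.71, crosses one of them.

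The deposited transcript counts allow SLC11A2 transcripts with and without the element printed above to be followed. The element lay in the 3′ UTR of 6 transcripts and in 2 more without an annotated coding region. The 24 transcripts without it include SLC11A2-229, a long protein-coding transcript, but also many fragments, retained introns and targets of nonsense-mediated decay, so the classes are not simply 2 alternative 3′ UTRs. The 8 transcripts with the element summed to 42.2, 43.7 and 41.8 CPM in PC9 and 22.3, 23.2 and 22.5 CPM in PS cells. The 24 without it summed to 17.1, 16.8 and 19.2 CPM in PC9 and 10.4, 8.77 and 10.0 CPM in PS cells. Both classes were lower in every PS library, at 0.532 and 0.550 of the PC9 mean (exact two-sided permutation test, p = 0.1 for each, the smallest possible). The element-bearing class made up 71.2%, 72.2% and 68.6% of SLC11A2 counts in PC9 and 68.1%, 72.6% and 69.2% in PS cells. These shares overlapped, with a difference of -0.707 percentage points (exact permutation test, p = 0.8), and with 1 library left out the difference lay between -2.00 and 0.212 points. Over protein-coding transcripts alone it was -2.29 points (exact permutation test, p = 0.3). Of single transcripts, SLC11A2-201 changed by a log2 fold of -1.08 (edgeR adjusted p = 0.00628) and SLC11A2-229 one of -0.90 (edgeR adjusted p = 0.00277), and they held 53.2% and 25.5% of the gene's counts in PC9. SLC11A2-202, with 14.6% of them, did not pass. In PS replicates 1, 2 and 3 SLC11A2-201 held 42.03%, 42.15% and 59.05% of the gene's counts. SLC11A2-202 held 24.32%, 20.68% and 4.59% there. These shares moved in opposite directions, so how counts divide between SLC11A2-201 and SLC11A2-202 is uncertain. With 1 library left out, SLC11A2-201 passed only without PS replicate 3 (edgeR adjusted p = 0.00231) and SLC11A2-229 only without PS replicate 1 (edgeR adjusted p = 0.0087). With the replicate number as a block 0 member transcripts passed. The share of all transcripts that passed in these fits was not computed.

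**Figure D3:**
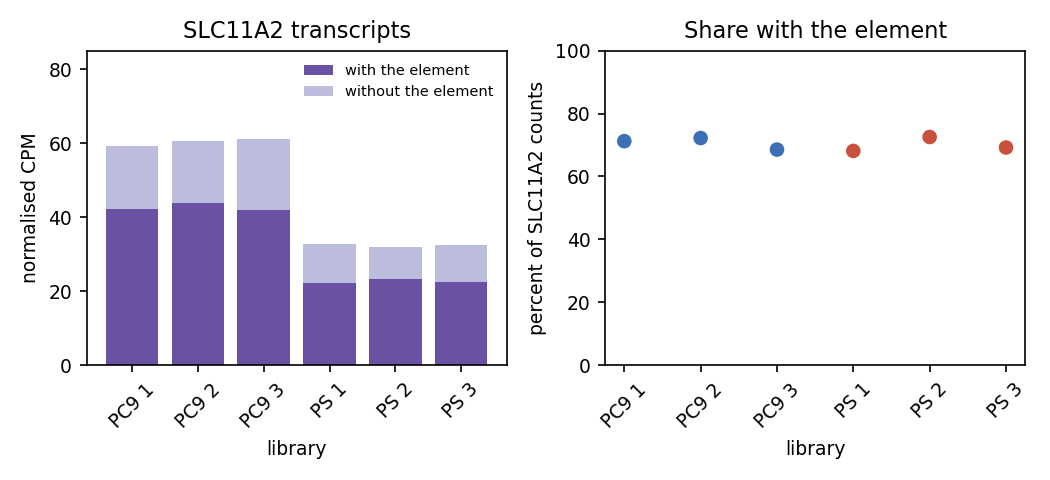
Left, normalised CPM (bars, from 0) of SLC11A2 transcripts with and without the element in each of the 6 libraries. Right, the percent of SLC11A2 counts on transcripts with the element: the bars of both classes are lower in PS cells, and the share stays between 68.1% and 72.6%.

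FTH1 (ENSG00000167996, chr11:61959718-61967634, minus strand), the ferritin chain with ferroxidase activity, stood at 4524, 4513 and 4358 CPM in PC9. It stood at 4832, 5281 and 5079 CPM in PS cells. The lowest PS library lay above the highest PC9 library, the means being 4465 ± 92.7 and 5064 ± 225 CPM (SD, n = 3). The log2 fold change was 0.18 with a standard error of 0.0381 (edgeR adjusted p = 0.00146). Without PC9 replicate 3 the log2 fold change was 0.16 and did not pass (edgeR adjusted p = 0.0135), so this call rests on that library.

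FTL (ENSG00000087086, chr19:48965309-48966879, plus strand), the chain that helps to form the iron core, stood at 2326, 2427 and 2399 CPM in PC9. It stood at 2828, 2915 and 3030.2 CPM in PS cells. The PS libraries were all higher, with a log2 fold change of 0.29 and a standard error of 0.0361 (edgeR adjusted p = 2.89e-05). Together the 2 ferritin genes took 0.693%, 0.711% and 0.689% of all gene counts in PC9 and 0.759%, 0.799% and 0.794% in PS cells. There were 1.95, 1.86 and 1.82 FTH1 counts per FTL count in PC9 and 1.71, 1.81 and 1.68 in PS cells, a narrow separation (exact permutation test, p = 0.1). Ferritin has many processed pseudogenes, whose counts cannot always be told apart from those of the genes, and the 25 FTH1 and 16 FTL pseudogene rows held at most 0.0395% and 0.0387% of the counts of FTH1 and FTL.

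NCOA4 (ENSG00000266412, chr10:46005088-46030623, minus strand), the receptor that delivers ferritin to lysosomes, stood at 337, 322 and 321 CPM in PC9 and 292, 292 and 289 CPM in PS cells. Each PS library was below each PC9 library, and the fall was small, with a log2 fold change of -0.17 and a standard error of 0.0343 (edgeR adjusted p = 0.00129). Of all genes tested 71.7% changed by more than NCOA4 and 69.5% by more than FTH1, while for FTL the share was 53.8%.

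SLC40A1 (ENSG00000138449, chr2:189560590-189583758, minus strand), the iron exporter ferroportin, stood at 28.9, 25.7 and 26.4 CPM in PC9. It stood at 23.3, 22.3 and 23.7 CPM in PS cells. The groups did not overlap, and PC9 replicate 1 was the highest. The log2 fold change was -0.23 with a standard error of 0.0586 (edgeR adjusted p = 0.00527). This call was lost with DESeq2 (adjusted p = 0.0153) and in edgeR when any library but PC9 replicate 2 was left out: without PC9 replicate 1 or 3 the adjusted p was 0.0119 and 0.0128, and without PS replicate 1, 2 or 3 it was 0.0161, 0.0295 and 0.0125.

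HMOX1 (ENSG00000100292, chr22:35380361-35394214, plus strand), the inducible enzyme that opens heme and frees its iron, stood at 10.1, 10.0 and 9.71 CPM in PC9. It stood at 14.4, 14.5 and 15.4 CPM in PS cells. The PS libraries were all higher, and the means were 9.94 ± 0.198 and 14.7 ± 0.562 CPM (SD, n = 3). The log2 fold change was 0.57 with a standard error of 0.0648 (edgeR adjusted p = 1.62e-05), and 28.3% of all genes changed by more.

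ACO1 (ENSG00000122729, chr9:32384603-32454769, plus strand), which encodes IRP1, stood at 59.1, 56.0 and 55.6 CPM in PC9 and 46.2, 43.4 and 43.95 CPM in PS cells. Every PS library was lower, with a log2 fold change of -0.36 and a standard error of 0.046 (edgeR adjusted p = 4.48e-05). IREB2 (ENSG00000136381, chr15:78437431-78501453, plus strand), which encodes IRP2, stood at 99.4, 88.5 and 94.5 CPM in PC9 and 102, 96.4 and 96.5 CPM in PS cells. These overlapped, and the log2 difference of 0.06 had a 95% interval from -0.05 to 0.17 (edgeR adjusted p = 0.289). IRP2 is controlled mainly by degradation of the protein, which RNA counts do not show.

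Ratios within a library do not depend on how libraries are scaled. There were 19.1, 19.8 and 18.5 FTH1 counts per TFRC count in PC9 and 15.1, 17.3 and 16.3 in PS cells. The PS values were all lower, so the rise of TFRC was the larger of the 2 (exact two-sided permutation test, p = 0.1, the smallest possible). The log2 ratio of TFRC to FTH1 differed by 0.24.

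**Figure D4:**
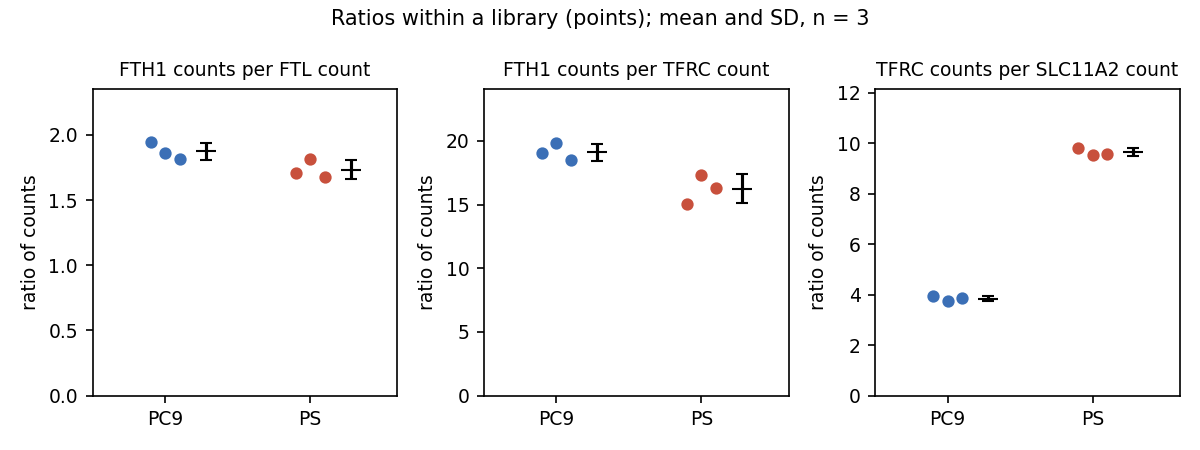
Ratios of counts within each library (vertical axes, from 0), 1 point per library, with mean and SD of 3 libraries. FTH1 per FTL and FTH1 per TFRC are slightly lower in PS cells, and TFRC per SLC11A2 goes from 3.85 to 9.64.

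Levels can be compared between genes only per length, for which transcripts-per-million values (TPM) were computed from the transcript counts and annotated lengths. In PC9, FTH1 was the highest at 9861 ± 312 TPM, followed by FTL at 5212 ± 209, NCOA4 at 182 ± 3.42 and TFRC at 103 ± 1.16 TPM (SD, n = 3). IREB2 at 32.4 ± 0.289 TPM and SLC11A2 at 31.9 ± 1.49 TPM came next and did not differ beyond their spread. ACO1 at 28.6 ± 0.642, STEAP3 at 20.3 ± 1.57, SLC40A1 at 16.0 ± 1.13 and HMOX1 at 12.3 ± 0.315 TPM followed. In PS cells the first 5 kept their order, with FTH1 at 11690.0 ± 67.1, FTL at 6626 ± 178, NCOA4 at 167 ± 4.95, TFRC at 137 ± 6.93 and IREB2 at 34.7 ± 1.12 TPM. Below them ACO1 at 23.3 ± 1.45 and STEAP3 at 22.3 ± 0.541 TPM overlapped, as did SLC11A2 at 19.1 ± 1.02 and HMOX1 at 18.8 ± 0.752 TPM. SLC40A1, at 14.4 ± 0.757 TPM, was the lowest in PS cells, where HMOX1 had been the lowest in PC9.

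The 10 genes had 95 transcripts in the table, of which 42 had enough counts to be tested. In PS cells 3 were higher and 2 lower, the latter the SLC11A2 transcripts above, beside 7.8% of all transcripts tested that passed in either direction. TFRC-201, with 94.6% of TFRC counts in PC9, rose by 0.39 on the log2 scale (edgeR adjusted p = 0.00136). FTL-201 rose by 0.27 (edgeR adjusted p = 0.00534) and HMOX1-201 by 0.56 (edgeR adjusted p = 0.00646). When 1 library was left out, 0 to 3 of the 5 passed, 0 of them without PC9 replicate 3 and 3 without PS replicate 1. The share of all transcripts that passed in those fits was not computed.

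Most members were read mainly as 1 transcript, among them SLC40A1-201 with 99.1%, IREB2-201 with 97.4%, ACO1-202 with 83.9% and STEAP3-201 with 82.2% of the gene's PC9 counts. NCOA4 was divided between NCOA4-204 with 51.2% and NCOA4-207 with 45.9%. FTH1 was spread over FTH1-210, annotated as a target of nonsense-mediated decay, with 40.6%, FTH1-212 with 22.3%, FTH1-201 with 18.2% and FTH1-206 with 15.7%, transcripts that share most of their sequence, so their division is uncertain. A change in how a gene's counts divide over its transcripts was testable for 7 members and passed for 0 of them, beside 1.88% of genes with edgeR's diffSpliceDGE. The smallest unadjusted p among the 7 was 0.351, for NCOA4, so 0 lay under 0.05. Without PC9 replicate 1, FTH1 passed this usage test (edgeR adjusted p = 0.00946), and the share of all genes that passed in that fit was not computed.

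A wider list of 73 other genes of iron and heme handling set the members in context. Of these 65 had enough counts, and 22 were higher, 25 lower and 18 did not pass, with a median log2 fold change of -0.07. At 72.3% the called share was above the 56.8% of all genes, a difference that was not tested. Among 11 uptake genes tested 2 were higher and 5 lower. The zinc and iron importer SLC39A14 rose from 44.2 to 85.8 CPM (log2 fold change 0.96, edgeR adjusted p = 5.67e-09). MELTF, a transferrin relative on the cell surface, rose from 119 to 277 CPM (log2 fold change 1.22, edgeR adjusted p = 2.85e-07). The metalloreductase STEAP4 fell from 51.2 to 20.7 CPM (log2 fold change -1.31, edgeR adjusted p = 5.64e-09), and lipocalin LCN2, which binds iron-carrying siderophores, fell from 344 to 197 CPM (log2 fold change -0.81, edgeR adjusted p = 5.90e-08). The named uptake genes thus moved in both directions, as TFRC and SLC11A2 did.

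**Figure D5:**
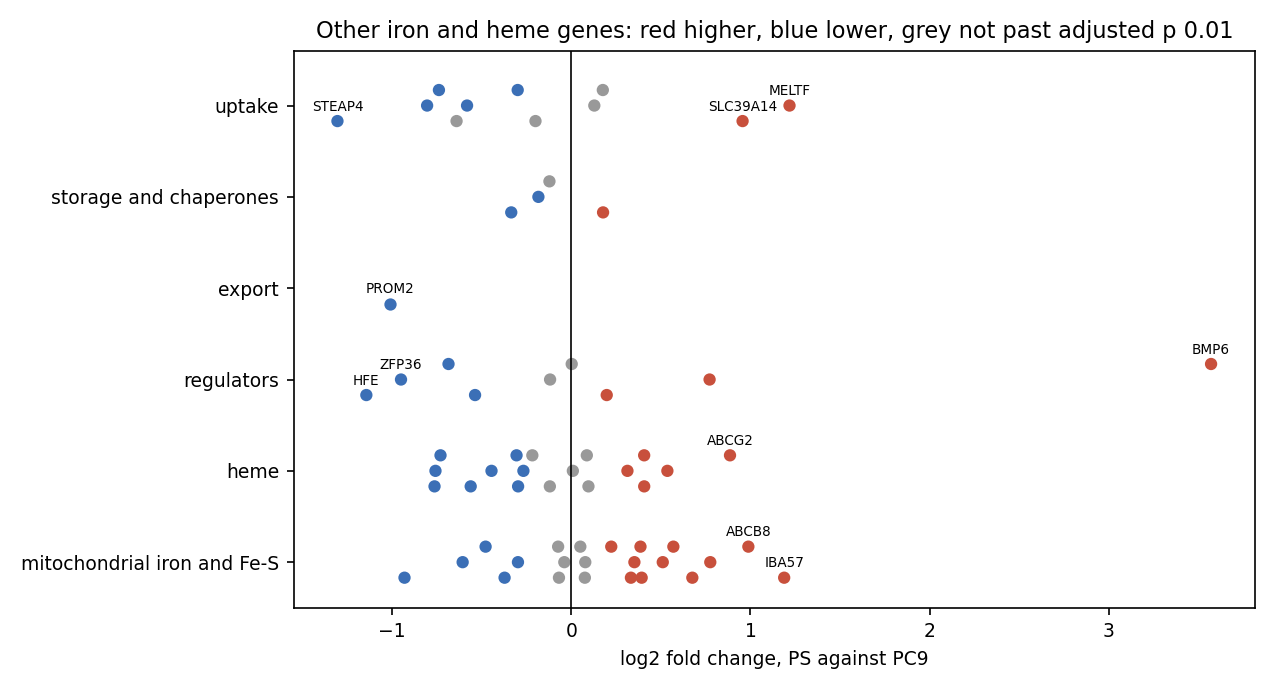
Log2 fold change of PS against PC9 (horizontal axis) for the 65 tested genes of the wider list, by role, red for higher, blue for lower and grey for not passed. Each role with more than 1 gene has points on both sides of 0, and BMP6 at 3.57 lies apart from the rest.

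Of 4 tested genes of storage and iron chaperoning, 1 was higher and 2 lower, beside 28.7% and 28.1% of all genes. The iron chaperone PCBP2 fell slightly, by a log2 change of -0.18 (edgeR adjusted p = 0.000649). The glutaredoxin GLRX3 rose by 0.18 (edgeR adjusted p = 0.00285) and BOLA2B changed by -0.34 (edgeR adjusted p = 0.00377), the latter uncertain because BOLA2 is a near-identical copy. Without PC9 replicate 3, PS replicate 1 or PS replicate 3 GLRX3 did not pass (edgeR adjusted p = 0.0203, 0.0145 and 0.0162), nor with upper-quartile factors (edgeR adjusted p = 0.0144) or scaling by library size only (edgeR adjusted p = 0.025). Without PC9 replicate 3, PS replicate 1 or PS replicate 2 BOLA2B did not pass (edgeR adjusted p = 0.0185, 0.0144 and 0.0152). Of 5 export genes the 1 tested, PROM2, whose protein promotes the release of ferritin in vesicles, fell from 158 to 78.2 CPM (log2 fold change -1.01, edgeR adjusted p = 2.21e-08). SCARA5, FTMT, HEPH, CP, HEPHL1, HAMP, HJV and TMPRSS6 had too few counts to be tested.

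Of 9 regulators tested 3 were higher and 4 lower, again beside 28.7% and 28.1% of all genes. BMP6, a growth factor that induces hepcidin in the liver, rose from 0.402 to 4.82 CPM (log2 fold change 3.57, edgeR adjusted p = 1.58e-08). HFE, which binds the transferrin receptor, fell from 55.4 to 25.1 CPM (log2 fold change -1.14, edgeR adjusted p = 8.03e-09), and ZFP36, a protein that binds AU-rich elements of messages, fell from 48.2 to 24.9 CPM (log2 fold change -0.95, edgeR adjusted p = 2.74e-07). The other 6 tested regulators are named outside the rule, after their values were seen. BACH1, the repressor of HMOX1 and the ferritin genes, fell from 50.1 to 31.2 CPM (log2 fold change -0.69, edgeR adjusted p = 4.03e-07). FBXL5, the iron-sensing subunit of the ligase that degrades IRP2, fell from 53.8 to 37.1 CPM (log2 fold change -0.54, edgeR adjusted p = 3.93e-06). The ubiquitin ligase HERC2, which takes part in the turnover of NCOA4, rose from 63.1 to 108 CPM (log2 fold change 0.77, edgeR adjusted p = 1.37e-05), and MAFG, a partner of both BACH1 and NFE2L2, rose from 103 to 118 CPM (log2 fold change 0.20, edgeR adjusted p = 0.00537). NFE2L2, which activates HMOX1 and ferritin genes, stood at 230.2 and 230.5 CPM and did not pass (edgeR adjusted p = 0.962), nor did KEAP1, the adaptor that marks the NFE2L2 protein for degradation (128 and 118 CPM, edgeR adjusted p = 0.0779).

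Of 18 heme genes 5 were higher and 8 lower, where 28.7% and 28.1% of all genes were. The heme transporter SLC48A1 fell from 94.8 to 55.8 CPM (log2 fold change -0.76, edgeR adjusted p = 1.08e-07), and PGRMC1, a heme-binding membrane protein, fell from 238 to 161 CPM (log2 fold change -0.56, edgeR adjusted p = 9.44e-08). ABCG2, which exports porphyrins among many substrates, rose from 29.6 to 54.7 CPM (log2 fold change 0.89, edgeR adjusted p = 1.76e-08). Of 22 genes of mitochondrial iron and iron-sulfur cluster assembly 11 were higher and 5 lower, beside the same 28.7% and 28.1% of all genes, with a median log2 fold change of 0.15. Whether this role differs from other genes was not tested. The chaperone HSPA9 rose from 387 to 618 CPM (log2 fold change 0.68, edgeR adjusted p = 2.35e-08) and the transporter ABCB8 from 16.5 to 32.7 CPM (log2 fold change 0.99, edgeR adjusted p = 9.86e-08). The assembly factors IBA57 and ISCA1 rose by log2 values of 1.19 (edgeR adjusted p = 9.65e-07) and 0.57 (edgeR adjusted p = 6.33e-07).

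The genes whose log2 CPM followed TFRC most closely over the 6 libraries were RC3H2, SLC26A2 and SPAG9, with Pearson r of 0.9998, 0.9997 and 0.9996. For FTH1 they were USP39, PRPF4 and QDPR, with r of 0.998, 0.997 and 0.996. The libraries fall into 2 conditions, and r over them cannot be told apart from a shared difference between the conditions.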

How the data were processed

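Poly-A RNA of 3 PC9 and 3 PS libraries was sequenced as paired 75 bp reads. Per the labels and methods, the authors assigned reads with Kallisto 0.46.1 to Ensembl 96 transcripts of GRCh38 and deposited its estimated counts as whole numbers per gene symbol and per transcript, without normalization. Whether the counting used strand is not given in the sources used here. No column was left without a sample. The study's Sleuth 0.30.0 analysis was not repeated.

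In edgeR 4.0.16 (R 4.3.3), filterByExpr and TMM normalization preceded the quasi-likelihood test of PS against PC9 over all genes, Benjamini-Hochberg adjusted, with 0.01 as the limit. Transcripts were tested alike, and transcript usage with diffSpliceDGE. Standard errors are the size of the log2 fold change over the square root of F. Single ratios and shares were compared by exact two-sided permutation tests. Positions, lengths and transcript classes are from GENCODE 44, in which all 10 members were matched by symbol, and 167067 of 188753 transcripts, with 95.8% of transcript counts, were matched. The steps were tested on simulated data. Figures were drawn with matplotlib 3.10.9.

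The total gene counts set a precision finer than the spread between replicates, and libraries of a condition differed by more than sampling noise (chi-square per degree of freedom 3.41 to 20.0). Same-numbered PC9 and PS libraries were not treated as pairs.

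Members and lists were chosen with earlier results of these data known. Named were all members, the 3 genes with the smallest p in each role of the wider list and those changed over 2-fold, member transcripts with 5% or more of the gene's counts in either condition, of which those described are given, and the 3 genes most like TFRC and FTH1. The regulators BACH1, FBXL5, HERC2, MAFG, NFE2L2 and KEAP1 were named outside this rule, after their values were seen. Alternatives were DESeq2 1.42.0, limma 3.58.1 voom, other normalizations and limits, no filter on low counts, gene counts summed from transcripts, pseudogene counts added, a replicate block and each library left out.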

Additional observations from a re-analysis of the deposited data

How the results depend on the processing

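No member changed direction under any of the 17 alternatives, and SLC11A2 passed under all of them. Direction could not change at the limit of 0.05 or against a fold change of 1.5, which kept the main fit's fold changes. Against a fold change of 1.5, 1969 of 14626 genes passed (13.5%), 1 of the 10 members (0 higher, 1 lower) and 12 of the 65 tested genes of the wider list. Whether these shares differ was not tested. With DESeq2, 3 members were lower in place of 4, where 35.6% of 21639 genes passed in either direction. SLC40A1 did not pass against a fold change of 1.5, which is another hypothesis. Over the other alternatives its adjusted p ran from 0.00137 (edgeR, scaling by library size only) to 0.0295 (edgeR, without PS replicate 2). Of member transcripts, 5 passed, beside 7.8% of all transcripts tested. The number was 0 with the replicate block, 8 at an adjusted p under 0.05, and 0 to 3 with 1 library left out. For transcript usage the range was 0 to 1. Shares of all transcripts under these alternatives were not computed. A loss over the whole table therefore cannot be told apart from one in the members. The cause of these differences was not tested. The replicate block left 8 members changed, beside 59.3% of all genes. Deviations of same-numbered libraries correlated by 0.124, 0.024 and 0.022, and not every library correlated best with its own number. With 3 libraries a condition, p under 0.1 is out of reach of a permutation test.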
